A study of Homo sapiens with 16 samples.

Results

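The comparison set SW620 cells that carried dnLEF1 against SW480 cells that carried dnLEF1, to describe how these colon cancer lines differed while both carried a blocker of Wnt output. Its members were the 4 libraries titled SW620 dnLEF1 and the 4 titled SW480 dnLEF1, 8 of the 16 libraries of the series, chosen by their titles. SW480 and SW620 are established human colon cancer lines, derived from a primary tumour and a later lymph node metastasis of the same patient, and a truncated APC protein keeps Wnt signalling high in both. dnLEF1 is a dominant negative LEF1 that binds DNA at Wnt target genes but lacks the part that binds beta-catenin. The other 8 libraries, 4 of SW620 GFP and 4 of SW480 GFP, carried GFP as the mock control and are labelled Wnt high, whereas the dnLEF1 libraries are labelled Wnt low. All 4 groups were untreated cells of passage 6 grown in DMEM. The labels do not give the vector, its promoter or whether a line was 1 clone, and they do not say that the 4 libraries of a group came from separate cultures, so each p-value reflects only how these samples varied, which may be technical variation.

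As background, Wnt ligands stop the destruction complex of APC and AXIN proteins, beta-catenin accumulates, and it activates genes on which LEF1 or another TCF factor is bound. In the colon this output sustains stem and progenitor cells at the crypt base, and its targets include inhibitors of the pathway itself, such as AXIN2, NKD1 and NOTUM. Loss of APC function leaves the output switched on in most colon cancers.

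Polyadenylated RNA was sequenced, and the deposited values were raw read counts per gene. Gene counts per library ran from 17181204 to 26153506 in SW620 dnLEF1 and from 20750433 to 22542059 in SW480 dnLEF1. Log2 CPM (read counts scaled to a common library size) correlated at 0.996 to 0.998 within SW620 dnLEF1, at 0.993 to 0.998 within SW480 dnLEF1 and at 0.854 to 0.866 between them. Fewer genes had a count in SW620 dnLEF1, 16043 to 16612, than in SW480 dnLEF1, 17327 to 17579. Epithelial markers summed to 8534 to 10835 CPM in SW620 dnLEF1 and to 7090 to 8512 CPM in SW480 dnLEF1, with 7 and 6 of 11 above 1 CPM. Of 14 blood and endothelial markers, 7 had no count in SW620 dnLEF1 and 4 had none in SW480 dnLEF1, PTPRC and CD3E among them in both, and the sums were 7.86 to 8.41 CPM in SW620 dnLEF1 and 13.2 to 14.8 CPM in SW480 dnLEF1. Markers of fibroblasts summed to 29.3 to 32.9 CPM in SW620 dnLEF1 and 23.9 to 54.8 CPM in SW480 dnLEF1, and those of neurons and glia to 197 to 221 CPM in SW620 dnLEF1 and 67.5 to 84.8 CPM in SW480 dnLEF1, carried by SYT1, MBP and GAD1. Their part in the results below was not tested. In such bulk libraries, fewer cells of a type and less RNA per cell cannot be told apart.

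LEF1, the gene from which the construct is made (chromosome 4, 108047545 to 108168956 on hg38, minus strand), measured 25.6, 20.1, 23.2 and 24.2 CPM in SW620 dnLEF1 libraries 1 to 4, against 273, 271, 269 and 173 CPM in SW480 dnLEF1 libraries 1 to 4. Every SW620 dnLEF1 library was below every SW480 dnLEF1 library, and SW480 dnLEF1 replicate 4 stood below its other three. The log2 difference was -3.40 ± 0.14 (approximate standard error, edgeR adjusted p = 1.47e-11). In the GFP libraries LEF1 measured 3.36 ± 0.501 CPM in SW620 and 51.7 ± 1.89 CPM in SW480 (SD, n = 4 each). A gene count pools reads of the dnLEF1 construct and of endogenous LEF1, so these values give no level of the blocker by itself. LEF1 also lies in a stretch of neighbouring genes on chromosome 4 that were mostly lower in SW620 dnLEF1, described with the other stretches at the end.

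Between the lines with dnLEF1, 5578 genes were higher and 5786 lower in SW620 out of 14397 tested (edgeR quasi-likelihood test, adjusted p below 0.05), so 78.9% of all genes tested were called, 38.7% higher and 40.2% lower. Of these, 1813 were at least 2-fold higher and 3004 at least 2-fold lower, 12.6% and 20.9% of the genes tested and 33.5% together, and the counts of list members below are read against these shares. The libraries of the groups did not overlap for 10419 genes, 72.4%. The median log2 difference was -0.01 and the median size of a difference 0.63. SW620 and SW480 with GFP, which share no library with them, differed at 11199 of 14350 genes, 78.0%, with 37.7% higher and 40.3% lower. At least 2-fold, they differed at 4167, 29.0%, with 9.41% higher and 19.6% lower, and the median size was 0.55. Among the 14021 genes tested in all fits, 4504 differed at least 2-fold between the lines with dnLEF1 and 3902 with GFP. The 3309 that did so in the same direction with both constructs were 73.5% of those with dnLEF1 and 84.8% of those with GFP, and 30 did so in opposite directions.

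Whether a line difference itself changed with the construct was tested as an interaction in all 16 libraries, and 4248 of 14926 genes, 28.5%, were called. The SW620 minus SW480 difference was higher with dnLEF1 than with GFP for 2418 genes (16.2%) and lower for 1830 (12.3%). By at least 2-fold it was higher for 767 (5.14%) and lower for 497 (3.33%), 8.47% together. Among the 14021 genes, 6612 were called with both constructs in the same direction and had no interaction call. With an interaction call as well, the difference called in the same direction was wider with dnLEF1 for 1773, and narrower for 769. It had opposite signs, each called and with an interaction call, for 294, of which 187 were higher in SW620 with dnLEF1 and lower with GFP. A further 71 genes were at least 2-fold higher and 79 at least 2-fold lower in SW620 dnLEF1, with an interaction call and no call between the GFP groups. SW620 GFP replicate 3, in which 39.4% of the deposited counts stood in the line for alignments that were not unique, against 7.94 to 8.71% in the others of its group, enters these GFP and interaction fits. Without it 11117 genes were called with GFP and 4131 in the interaction. The scatter of the line differences plots every gene.

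**Figure D1:**
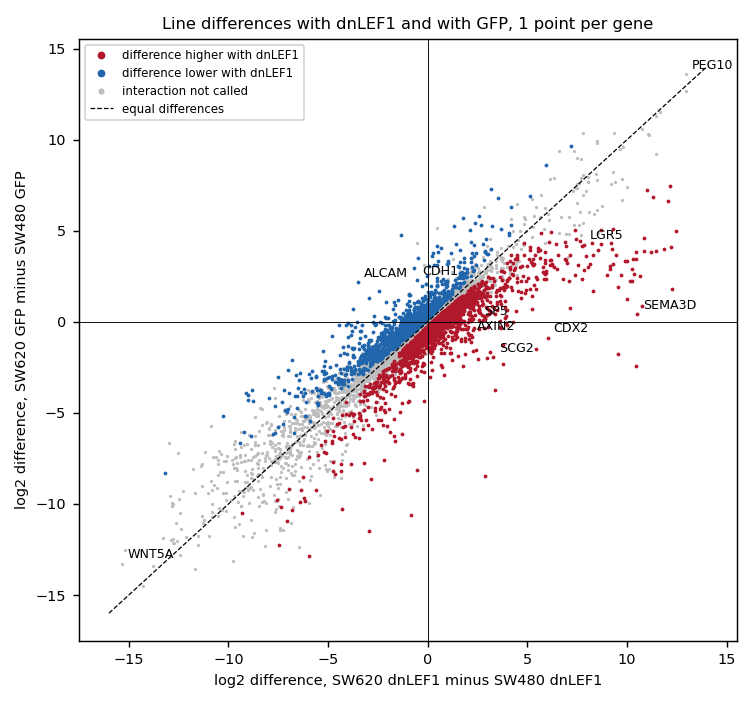
Log2 difference between the lines for each of the 14021 genes, SW620 dnLEF1 minus SW480 dnLEF1 on the x axis and SW620 GFP minus SW480 GFP on the y axis. Coloured points have a called interaction. Most genes lie along the dashed line of equal differences, while CDX2, AXIN2 and SCG2 lie to the right of the vertical axis and at or under the horizontal one, and ALCAM and CDH1 lie on the left and above.

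With dnLEF1, Wnt target genes were higher in SW620 more often than lower. Of 44 tested with dnLEF1, 27 were higher in SW620 and 14 lower, with 20 at least 2-fold higher and 12 at least 2-fold lower. With GFP, 19 of 43 were higher and 19 lower, with 14 each way at least 2-fold. The list's median log2 difference was 0.52 with dnLEF1 and 0.09 with GFP, against -0.01 and -0.02 for all genes tested. For 29 of the 44 the difference was higher with dnLEF1 than with GFP, against 16.2% of all genes, and for 4 it was lower, against 12.3%. The 4, named after the count was seen, were the secreted antagonist DKK4, the urokinase receptor PLAUR, the lactate transporter SLC16A3 and the glypican GPC4. Without SW620 dnLEF1 replicate 3 the count of 4 was 2.

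Among the 48 genes of the Wnt target list, 31 have a promoter in the RefSeq table used here (GRCh38.p14), and 3 of these hold the core of the LEF/TCF binding motif, CTTTGA or TCAAAG on the other strand, in the 250 bases before the start. They are shown because these are the letters that a LEF1 lacking its beta-catenin part would still bind, and because the 3 genes differ in how the lines compare. The core occurs in 11.2% of all 35116 promoter entries, and the longer form CTTTGAT or ATCAAAG in 2.26%. A match is a description of the sequence and not a binding site. The sequences run 5′ to 3′ along the gene's strand, with the core in capitals.
SP5, chr2:170715087-170715336, plus strand: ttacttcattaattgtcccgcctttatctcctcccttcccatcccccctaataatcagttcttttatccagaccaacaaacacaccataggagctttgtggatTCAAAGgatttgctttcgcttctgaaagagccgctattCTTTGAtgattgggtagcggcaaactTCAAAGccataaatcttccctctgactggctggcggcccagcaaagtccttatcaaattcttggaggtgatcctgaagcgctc
DKK1, chr10:52314031-52314280, plus strand: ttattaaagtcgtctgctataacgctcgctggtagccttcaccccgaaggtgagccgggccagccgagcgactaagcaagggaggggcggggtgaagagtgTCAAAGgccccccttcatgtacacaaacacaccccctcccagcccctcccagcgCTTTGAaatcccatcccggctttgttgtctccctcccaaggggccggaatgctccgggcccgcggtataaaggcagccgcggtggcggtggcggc
MMP7, chr11:102530748-102530997, minus strand: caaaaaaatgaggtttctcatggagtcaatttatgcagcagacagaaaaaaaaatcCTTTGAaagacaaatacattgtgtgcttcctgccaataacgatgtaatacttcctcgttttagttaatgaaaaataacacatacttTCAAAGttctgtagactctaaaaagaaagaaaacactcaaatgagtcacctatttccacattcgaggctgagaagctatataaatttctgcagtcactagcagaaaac

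SP5 holds 3 cores, 147 to 142, 109 to 104 and 83 to 78 bases before the start, and the middle one is part of the longer form. DKK1 holds 2, at 149 to 144 and 95 to 90, and MMP7 holds 2, at 194 to 189 and 108 to 103. SP5, a zinc finger transcription factor, measured 101, 111, 106 and 114 CPM in SW620 dnLEF1 against 19.1, 16.1, 17.3 and 19.5 CPM in SW480 dnLEF1. With GFP the lines were not called apart, at 116 ± 6.26 CPM in SW620 and 108 ± 6.45 CPM in SW480. The log2 difference was 2.58 ± 0.08 with dnLEF1 (edgeR adjusted p = 7.32e-13) and 0.09 ± 0.06 with GFP (adjusted p = 0.190), and the interaction was 2.49 ± 0.10 (adjusted p = 9.35e-14). DKK1, a secreted Wnt antagonist, was lower instead, at 5.54, 3.74, 3.89 and 2.94 CPM in SW620 dnLEF1 and 64.3, 66.7, 68.4 and 85.9 CPM in SW480 dnLEF1, with means of 2.56 CPM in SW620 GFP and 33.6 CPM in SW480 GFP. Its interaction was not called (log2 -0.43 ± 0.24, edgeR adjusted p = 0.197). MMP7, matrilysin, stayed near the floor of detection in SW620 dnLEF1 at 0.433 to 1.53 CPM, against 1.71 to 6.34 CPM in SW480 dnLEF1, and was 4.05-fold lower (edgeR adjusted p = 3.04e-04).

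The feedback inhibitors AXIN2, NKD1 and NOTUM were all far higher in SW620 with dnLEF1. AXIN2 (chromosome 17, 65528563 to 65561648, minus strand), the scaffold of the destruction complex, measured 335, 312, 321 and 311 CPM in SW620 dnLEF1 and 71.5, 72.5, 72.0 and 63.1 CPM in SW480 dnLEF1. With GFP it was the other way round, at 333 ± 14.7 CPM in SW620 and 550 ± 11.2 CPM in SW480. The log2 difference was 2.19 ± 0.07 with dnLEF1 (edgeR adjusted p = 7.79e-13) and -0.73 ± 0.05 with GFP (adjusted p = 1.10e-08), and the interaction of 2.92 ± 0.08 had the smallest adjusted p of the genes whose sign was opposite, 1.02e-15.

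NKD1, which binds Dishevelled (chromosome 16, 50548396 to 50649249, plus strand), measured 2296, 2411, 2845 and 2817 CPM in SW620 dnLEF1, against 51.0, 63.1, 65.9 and 51.9 CPM in SW480 dnLEF1, a 44.6-fold difference (edgeR adjusted p = 2.45e-14). The difference with GFP was 5.15-fold, at 2706 CPM in SW620 and 523 CPM in SW480. NOTUM, a hydrolase that inactivates Wnt ligands (chromosome 17, 81952507 to 81961840, minus strand), measured 572, 599, 472 and 524 CPM in SW620 dnLEF1 and 9.41, 8.85, 8.92 and 10.7 CPM in SW480 dnLEF1. That is 57.2-fold with dnLEF1 and 6.43-fold with GFP, where the means were 614 CPM in SW620 and 95.1 CPM in SW480. The interactions were 3.11 ± 0.14 for NKD1 and 3.15 ± 0.16 for NOTUM on the log2 scale (edgeR adjusted p = 1.00e-12 and 3.06e-12). In SW620 itself the means with dnLEF1 and with GFP were 320 and 333 CPM for AXIN2, 2592 and 2706 CPM for NKD1, 542 and 614 CPM for NOTUM and 108 and 116 CPM for SP5. The contrast of constructs within a line was not tested here.

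LGR5 (chromosome 12, 71439798 to 71586310, plus strand), an R-spondin receptor and a marker of stem cells in the intestine, measured 96.5, 90.7, 106 and 103 CPM in SW620 dnLEF1 and 0.394, 0.423, 0.337 and 0.556 CPM in SW480 dnLEF1. It was 229-fold higher in SW620 with dnLEF1 (log2 7.84 ± 0.12, edgeR adjusted p = 1.73e-15) and 18.6-fold higher with GFP, where SW480 still had 4.99 ± 1.19 CPM. SMOC2, a secreted matricellular protein of the crypt base, was 176-fold higher with dnLEF1 and 160-fold higher with GFP, and its interaction was not called (log2 0.14 ± 0.45, edgeR adjusted p = 0.867). It measured 72.2 ± 4.04 CPM in SW620 dnLEF1 and 0.412 ± 0.302 CPM in SW480 dnLEF1. LGR5 lies in a stretch of chromosome 12 where neighbouring genes were mostly higher in SW620, by a median log2 of 0.53, and its own difference was far above that.

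The cell cycle genes MYC and CCND1, often read as Wnt targets, showed other patterns. CCND1, cyclin D1, measured 322, 286, 300 and 302 CPM in SW620 dnLEF1 and 1130, 1287, 1298 and 1252 CPM in SW480 dnLEF1, a log2 difference of -2.04 ± 0.07 (edgeR adjusted p = 2.34e-12). With GFP the gap was wider, at 277 ± 13.3 CPM in SW620 and 2593 ± 158 CPM in SW480, and the interaction was 1.19 ± 0.09 (adjusted p = 1.88e-09). MYC measured 279 to 316 CPM in SW620 dnLEF1 and 222 to 253 CPM in SW480 dnLEF1, 1.28-fold higher with dnLEF1 (edgeR adjusted p = 2.90e-04) and 1.40-fold with GFP, and the interaction was not called (log2 -0.14 ± 0.10, adjusted p = 0.346).

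**Figure D2:**
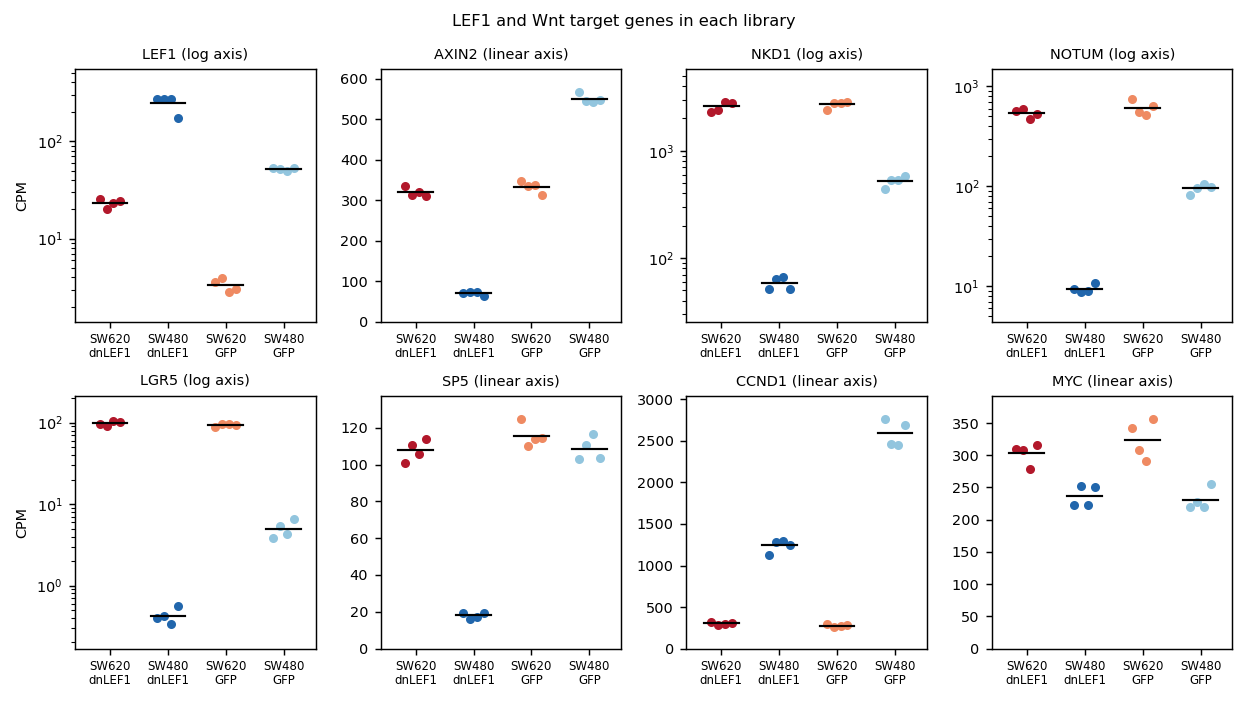
CPM of LEF1 and 7 Wnt target genes in each library, 1 point per library and a bar at the mean of the 4, with a linear or log axis as each panel says. For AXIN2, NKD1, NOTUM, LGR5 and SP5 the SW480 dnLEF1 libraries are the lowest of the 4 groups, and the 2 SW620 groups stand at nearly the same level.

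Ligands, receptors and corepressors of the pathway also differed between the lines. Of 23 Wnt ligands only 10 passed the filter on low counts, 2 at least 2-fold higher and 6 at least 2-fold lower in SW620 dnLEF1. WNT5A, a ligand that acts mostly without beta-catenin (chromosome 3, 55465715 to 55490539, minus strand), had no count in any SW620 dnLEF1 library and 210, 247, 259 and 215 CPM in SW480 dnLEF1, at least 6702-fold lower against a floor of 3 counts over the group. WNT10A averaged 2.94 ± 0.672 CPM in SW620 dnLEF1 and 11.4 ± 1.28 CPM in SW480 dnLEF1, and WNT10B 0.365 ± 0.181 CPM in SW620 dnLEF1 and 3.49 ± 0.462 CPM in SW480 dnLEF1. Of 21 receptors and co-receptors, 7 were at least 2-fold higher and 8 at least 2-fold lower, and the Frizzled receptors split. FZD10 measured 46.4, 44.5, 43.6 and 45.3 CPM in SW620 dnLEF1 and 0.0421 to 0.131 CPM in SW480 dnLEF1, against means of 35.5 CPM in SW620 GFP and 1.03 CPM in SW480 GFP. FZD7 went the other way, at 0.207 to 0.491 CPM in SW620 dnLEF1 and 56.9 to 66.4 CPM in SW480 dnLEF1, as did FZD1, at 0.874 ± 0.242 CPM in SW620 dnLEF1 and 52.3 ± 4.46 CPM in SW480 dnLEF1. FZD10 in SW480 dnLEF1 and FZD7 in SW620 dnLEF1 were thus both under 1 CPM in every library.

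The Groucho corepressors, which hold TCF target genes silent, held some of the widest gaps. Over the 20 TCF/LEF factors and cofactors, 3 were at least 2-fold higher and 6 at least 2-fold lower in SW620 dnLEF1. TLE1 (chromosome 9, 81583683 to 81689547, minus strand) had 0 to 0.0787 CPM in SW620 dnLEF1 and 57.9, 71.8, 67.2 and 63.6 CPM in SW480 dnLEF1, while the SW480 GFP libraries averaged 3.15 ± 0.684 CPM. Its log2 difference was -10.29 ± 0.20 with dnLEF1 (edgeR adjusted p = 8.10e-15), and the interaction was -5.13 ± 0.91 (adjusted p = 2.19e-04), though the SW620 level rests on 4 counts. TLE4 averaged 0.138 ± 0.0173 CPM in SW620 dnLEF1 and 14.9 ± 2.82 CPM in SW480 dnLEF1, against 0.0337 CPM in SW620 GFP and 11.8 CPM in SW480 GFP. HDAC2, a deacetylase of corepressor complexes, was 2.61-fold higher in SW620 dnLEF1. The cytoplasmic core differed little, with 2 of 18 at least 2-fold higher, AXIN2 and AMER1, and 1 at least 2-fold lower, and 6 not called. AXIN1 was 1.78-fold and the tankyrase TNKS 1.93-fold higher. Among 15 antagonists, 7 were at least 2-fold higher and 8 at least 2-fold lower in SW620 dnLEF1, and DKK3 was 222-fold lower, at 0.333 ± 0.0548 CPM in SW620 dnLEF1 and 75.9 ± 10.7 CPM in SW480 dnLEF1.

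Intestinal transcription factors were the list with the highest median, 1.81 over 17 genes with dnLEF1 and 0.83 over 18 genes with GFP. Of 17 tested, 12 were at least 2-fold higher in SW620 dnLEF1 and 2 at least 2-fold lower. CDX2, the homeobox factor of intestinal identity (chromosome 13, 27960918 to 27969315, minus strand), measured 11.1, 7.86, 7.67 and 8.67 CPM in SW620 dnLEF1 against 0.175, 0.0423, 0.168 and 0.139 CPM in SW480 dnLEF1. With GFP the SW480 libraries were the higher ones, at 6.62 ± 1.87 CPM in SW620 and 12.2 ± 0.612 CPM in SW480. The log2 difference was 6.02 ± 0.27 with dnLEF1 (edgeR adjusted p = 4.05e-11) and -0.88 ± 0.15 with GFP (adjusted p = 9.83e-05), and the interaction was 6.89 ± 0.34 (adjusted p = 3.06e-12).

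HNF4A, a nuclear receptor of gut and liver epithelium, averaged 172 ± 17.7 CPM in SW620 dnLEF1 and 9.53 ± 0.828 CPM in SW480 dnLEF1, 18-fold higher. Its relative HNF4G had 14.7 to 16.7 CPM in SW620 dnLEF1 and no count in SW480 dnLEF1, at least 480-fold higher, against 15.1 CPM in SW620 GFP and 1.02 CPM in SW480 GFP. Every SW620 dnLEF1 library was above every SW480 dnLEF1 library for both. SOX2 was 8.04-fold higher with dnLEF1 and FOXA3 7.34-fold, although SOX2 lies in a stretch of chromosome 3 whose genes were mostly lower in SW620.

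Genes of differentiated gut cells were detected in part only. Of 33 enterocyte genes 8 passed the filter, 3 at least 2-fold higher and 3 at least 2-fold lower in SW620 dnLEF1. The list's median log2 difference was 0.06 over these 8 genes with dnLEF1, so the list as a whole had no common direction with that construct. With GFP the median was -1.05 over 10 genes, so the medians cover different sets of genes. The 3 higher ones belong to the brush border, and the 3 lower ones are not described here. Villin, VIL1 (chromosome 2, 218419121 to 218453295, plus strand), which bundles the actin of microvilli, measured 300, 308, 305 and 299 CPM in SW620 dnLEF1 against 1.75, 2.62, 2.95 and 2.41 CPM in SW480 dnLEF1. It was 124-fold higher with dnLEF1 (log2 6.95 ± 0.11, edgeR adjusted p = 1.76e-15) and 10.4-fold with GFP, where SW480 had 35.0 ± 4.61 CPM. The microvillus linker USH1C averaged 113 ± 5.65 CPM in SW620 dnLEF1 and 2.06 ± 0.581 CPM in SW480 dnLEF1, and CDHR2 averaged 15 ± 1.95 CPM in SW620 dnLEF1 and 0.0654 ± 0.0558 CPM in SW480 dnLEF1. All 5 enterocyte genes with an interaction call, of 10 in that fit, had a higher line difference with dnLEF1, a call made for 16.2% of all genes. Without SW480 GFP replicate 2, SW620 GFP replicate 4 or SW620 dnLEF1 replicate 4, 1 call the other way appeared.

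The secretory and enteroendocrine list was mixed, with 6 of 16 at least 2-fold higher and 6 at least 2-fold lower in SW620 dnLEF1. TFF3, a trefoil peptide of goblet cells, measured 31.6, 36.2, 27.8 and 29.8 CPM in SW620 dnLEF1 and had no count in SW480 dnLEF1, at least 944-fold higher, against 31.9 CPM in SW620 GFP and 1.02 CPM in SW480 GFP. DCLK1, a kinase of tuft cells, was lower, at 0.663 to 1.09 CPM in SW620 dnLEF1 and 84.3 to 124 CPM in SW480 dnLEF1. CHGA, a granule protein of enteroendocrine cells, had no count in SW620 dnLEF1 and averaged 9.90 ± 0.587 CPM in SW480 dnLEF1, at least 284-fold lower. SCG2, another granule protein, was higher in SW620 dnLEF1 instead, and its values are given with the genes whose order reversed. The enteroendocrine genes named here thus had no common direction.

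Of 33 HOX genes tested, which set position along the gut, 6 were at least 2-fold higher and 13 at least 2-fold lower in SW620 dnLEF1. The HOXB cluster led the lower ones. HOXB8 measured 33.4, 37.5, 31.8 and 35.0 CPM in SW620 dnLEF1 and 178, 193, 202 and 235 CPM in SW480 dnLEF1, 5.88-fold lower (edgeR adjusted p = 3.01e-12). HOXB2, HOXB3 and HOXB6 were 9.91-fold, 4.27-fold and 4.56-fold lower. All 4 lie in a stretch of 28 genes on chromosome 17 whose median log2 difference was -0.66 with dnLEF1 and -0.47 with GFP. With the genes of all stretches left out, the count of HOX genes at least 2-fold lower was 5.

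Junction genes showed no common direction. Of 18 genes of adherens junctions and desmosomes, 4 were at least 2-fold higher and 5 at least 2-fold lower in SW620 dnLEF1, and of 25 tight junction genes 4 were higher and 7 lower. CDH1, E-cadherin (chromosome 16, 68737292 to 68835537, plus strand), measured 28.6, 24.1, 26.0 and 29.0 CPM in SW620 dnLEF1 and 30.6, 44.5, 44.6 and 36.4 CPM in SW480 dnLEF1. The SW620 libraries were all below the SW480 libraries by 1.45-fold (log2 -0.54 ± 0.11, edgeR adjusted p = 6.24e-04). With GFP they were all above, at 65.1 ± 4.97 CPM in SW620 and 13.3 ± 2.63 CPM in SW480 (log2 2.29 ± 0.12, adjusted p = 2.41e-10). The interaction of -2.83 ± 0.18 (adjusted p = 1.66e-10) makes CDH1 one of the 294 genes with opposite signs, in a stretch of chromosome 16 whose genes were otherwise mostly higher in SW620 with either construct.

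Other cadherins and junction proteins separated the lines nearly completely. CDH3, P-cadherin, and CDH11, a mesenchymal cadherin, had 5 and 4 counts in all SW620 dnLEF1 libraries together and averaged 43.8 ± 3.79 and 44.9 ± 3.53 CPM in SW480 dnLEF1. The nectin gene PVRL3, now named NECTIN3, had 3 counts in SW620 dnLEF1 and 1899 in SW480 dnLEF1, a ratio of 593 with an exact 95% counting interval of 203 to 2878. CLDN7, claudin 7, measured 0.791 to 1.62 CPM in SW620 dnLEF1 and 118 to 141 CPM in SW480 dnLEF1, 106-fold lower, and 67.7-fold lower with GFP. CGNL1, paracingulin, was the reverse, at 46.1, 46.8, 61.7 and 58.1 CPM in SW620 dnLEF1 and 0.0842 to 0.263 CPM in SW480 dnLEF1, whereas SW480 GFP had 4.92 ± 1.77 CPM. F11R, a junctional adhesion molecule, was 2.26-fold higher. CXADR, the coxsackie and adenovirus receptor of tight junctions, was 3.13-fold higher in SW620 with dnLEF1 and lower with GFP (log2 1.65 and -1.03), an interaction of 2.68 (edgeR adjusted p = 5.43e-13). EPCAM, an epithelial adhesion molecule, differed by less, at 463 ± 8.01 CPM in SW620 dnLEF1 and 311 ± 14.6 CPM in SW480 dnLEF1, 1.49-fold, and its interaction was not called (adjusted p = 0.170).

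**Figure D3:**
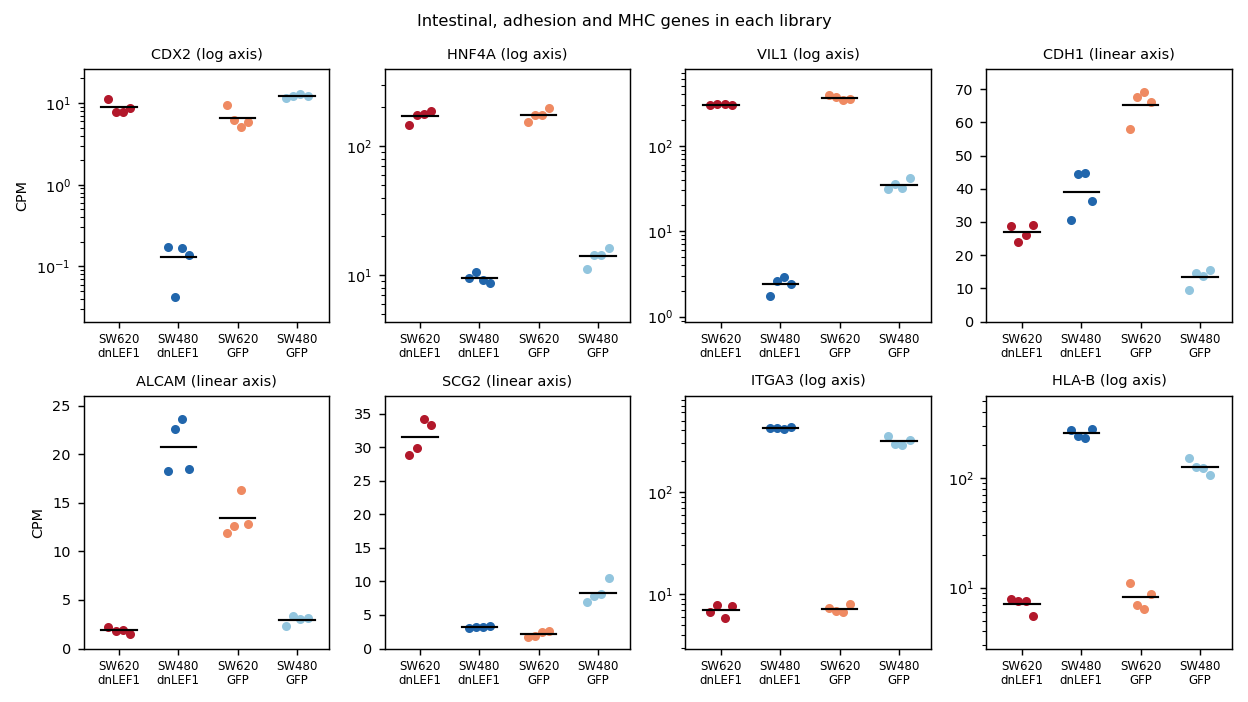
CPM of 8 named genes in each library, 1 point per library and a bar at the mean of the 4, with the axis of each panel as stated in it. CDX2, HNF4A and VIL1 are lowest in SW480 dnLEF1, CDH1, ALCAM and SCG2 change the order of the lines with the construct, and ITGA3 and HLA-B are low in SW620 with either construct.

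Matrix, integrin and protease genes were mostly lower in SW620. Of 38 genes of extracellular matrix and basement membrane 22 were at least 2-fold lower and 2 at least 2-fold higher (4 without SW480 dnLEF1 replicate 2 or replicate 3). Their median log2 difference was -1.51 with dnLEF1, and the list's median was -0.82 over 34 genes with GFP. The line difference was lower with dnLEF1 than with GFP for 17 of 39 genes of this list, against 12.3% of all genes, and higher for 4, against 16.2%. The collagen crosslinking oxidase LOXL2 was 46.5-fold lower with dnLEF1 and 22-fold with GFP, and the proteoglycan SDC4 5.33-fold lower with dnLEF1. LUM, the proteoglycan lumican, ran against the list, at 30.1, 25.6, 26.8 and 28.6 CPM in SW620 dnLEF1 with no count in SW480 dnLEF1, at least 853-fold higher, whereas SW480 GFP had 7.20 ± 2.69 CPM.

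Of 19 integrin genes 10 were at least 2-fold lower and 1 at least 2-fold higher in SW620 dnLEF1, or 2 higher without SW620 dnLEF1 replicate 1. ITGA3, a laminin receptor subunit (chromosome 17, 50055968 to 50090481, plus strand), measured 6.78, 7.80, 5.90 and 7.67 CPM in SW620 dnLEF1 and 420, 422, 410 and 431 CPM in SW480 dnLEF1. That is 60.2-fold lower with dnLEF1 (edgeR adjusted p = 1.67e-15) and 43.6-fold with GFP. ITGB5, ITGAV and ITGA5, which form receptors for vitronectin and fibronectin, were 6.77-fold, 6.91-fold and 3.35-fold lower. Of 23 proteases of invasion and their inhibitors, 14 were at least 2-fold lower, and 2 were called higher by less than 2-fold. The plasminogen activator PLAT averaged 0.660 ± 0.290 CPM in SW620 dnLEF1 and 120 ± 14.1 CPM in SW480 dnLEF1, against 0.754 CPM in SW620 GFP and 6.05 CPM in SW480 GFP, so its difference was 180-fold with dnLEF1 and 8.04-fold with GFP (interaction log2 -4.49 ± 0.39, edgeR adjusted p = 2.27e-08). Cathepsin L, CTSL, was 16.7-fold and the metalloprotease inhibitor TIMP3 12.4-fold lower.

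EMT factors, epithelial genes and keratins were all lower more often than higher in SW620. Of 14 EMT factors and mesenchymal markers, 7 were at least 2-fold lower in SW620 dnLEF1 and 2 at least 2-fold higher. VIM, vimentin, measured 679 to 742 CPM in SW620 dnLEF1 and 1111 to 1331 CPM in SW480 dnLEF1, 1.69-fold lower (edgeR adjusted p = 1.91e-07). ZEB1, a repressor of epithelial genes, did not pass the test, at 21.8, 16.9, 20.2 and 21.9 CPM in SW620 dnLEF1 and 15.1, 17.5, 19.2 and 19.2 CPM in SW480 dnLEF1 (log2 0.19 ± 0.11, edgeR adjusted p = 0.112), though without SW620 dnLEF1 replicate 2 it was called at a log2 difference of 0.27. The receptor kinase AXL and the membrane protease MMP14 were 6.53-fold and 5.48-fold lower. Of 21 epithelial genes, 9 were at least 2-fold lower and 4 at least 2-fold higher.

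Of 13 keratins 7 were at least 2-fold lower in SW620 dnLEF1, and 2 were called higher by less than 2-fold. KRT5, a basal keratin, measured 0.921 to 1.69 CPM in SW620 dnLEF1 and 798 to 928 CPM in SW480 dnLEF1, against means of 1.69 CPM in SW620 GFP and 2443 CPM in SW480 GFP. KRT23 was 17.5-fold lower with dnLEF1 and 78.6-fold with GFP, and KRT81 37.3-fold lower with dnLEF1. KRT40, outside that list, measured at least 39.2 CPM in each SW620 dnLEF1 library and had no count in either SW480 group, at least 1353-fold higher.

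Actin and focal adhesion genes stayed near the shares of all genes. At least 2-fold, 8 of 54 were higher and 14 lower, against 12.6% and 20.9% of all genes tested. LCP1, the plastin of blood cells that bundles actin, averaged 583 ± 33.4 CPM in SW620 dnLEF1 and 3.95 ± 0.997 CPM in SW480 dnLEF1, 147-fold higher. GSN, gelsolin, which severs actin, was 16.1-fold lower. CNN3, calponin 3, was 11.4-fold higher in SW620 with dnLEF1 at 200 ± 4.84 CPM in SW620 dnLEF1 and 17.4 ± 2.57 CPM in SW480 dnLEF1, and the gap with GFP was wider, at 220 CPM in SW620 and 1.97 CPM in SW480 (interaction log2 -3.28, edgeR adjusted p = 4.47e-13).

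YAP and TEAD targets, which report on the Hippo pathway, were lower in SW620 for most members. Of 28 tested, 16 were at least 2-fold lower and 1 at least 2-fold higher in SW620 dnLEF1. The median was -2.21 with dnLEF1, the lowest of the lists plotted for that construct. With GFP it was -1.66 over 27 genes, and other lists were lower. F3, tissue factor, measured 3.46, 3.87, 4.29 and 3.98 CPM in SW620 dnLEF1 and 64.3, 62.8, 60.4 and 64.4 CPM in SW480 dnLEF1, 16.1-fold lower, while the difference with GFP was 2.52-fold (interaction log2 -2.68 ± 0.14, edgeR adjusted p = 9.80e-12). CRIM1 was 82.1-fold lower with dnLEF1 and 74.8-fold with GFP, and the ectonucleotidase NT5E 102-fold lower with dnLEF1. WWTR1, which encodes TAZ, a relative of YAP, was 9.47-fold lower. It averaged 16.1 ± 1.06 CPM in SW620 dnLEF1 and 152 ± 9.27 CPM in SW480 dnLEF1.

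Genes of BMP and TGF-beta signalling followed with 15 of 35 at least 2-fold lower and 6 at least 2-fold higher. GREM1, a secreted BMP antagonist (chromosome 15, 32718004 to 32745106, plus strand), had no count in any SW620 library and measured 42.2, 42.7, 44.6 and 49.8 CPM in SW480 dnLEF1, against 0.561 ± 0.0364 CPM in SW480 GFP. With dnLEF1 it was at least 1283-fold lower in SW620. INHBB, an activin subunit, was higher, at 188, 175, 176 and 179 CPM in SW620 dnLEF1 and 17.5 to 20.5 CPM in SW480 dnLEF1, 9.26-fold with dnLEF1 and 3.75-fold with GFP. The co-receptor TGFBR3 was 15.5-fold higher and the type I receptor ACVR1 7.05-fold lower.

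Immune response genes were lower in SW620 in each of 3 lists. Of 40 interferon response genes, 25 were at least 2-fold lower and 2 at least 2-fold higher in SW620 dnLEF1. Their median log2 difference was -1.37 with dnLEF1, and the list's median was -0.84 over 37 genes with GFP. MX1, an antiviral GTPase, averaged 3.07 ± 0.386 CPM in SW620 dnLEF1 and 24.0 ± 1.94 CPM in SW480 dnLEF1, 7.75-fold lower with dnLEF1 and 3.40-fold with GFP. BST2, tetherin, was 38.0-fold lower, and the ISG15 ligase HERC5 had 1 count in SW620 dnLEF1 against 640 in SW480 dnLEF1.

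Of 18 genes of MHC class I presentation, 9 were at least 2-fold lower and 1 was called higher by less than 2-fold, and the line difference was lower with dnLEF1 than with GFP for 11, against 12.3% of all genes. HLA-B (chromosome 6, 31353872 to 31367067, minus strand), a class I heavy chain, measured 7.91, 7.55, 7.51 and 5.56 CPM in SW620 dnLEF1 and 274, 240, 230 and 279 CPM in SW480 dnLEF1, 36.0-fold lower with dnLEF1 (edgeR adjusted p = 2.87e-14) and 15.3-fold with GFP. HLA-E was 5.38-fold and HLA-F 21.1-fold lower with dnLEF1. Class I genes share near-identical sequence, so reads may have been split or lost between them. PSMB9, a subunit of the immunoproteasome, was 20.2-fold lower with dnLEF1 and 19.4-fold with GFP. CD74, the class II invariant chain, outside the list, had no count in SW620 dnLEF1 and 47.3 to 61.1 CPM in SW480 dnLEF1, at least 1502-fold lower.

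NF-kB targets and chemokines were at least 2-fold lower for 14 of 23 and at least 2-fold higher for 5. TNFAIP2 measured 1.58, 2.82, 2.52 and 1.99 CPM in SW620 dnLEF1 and 113, 128, 124 and 126 CPM in SW480 dnLEF1, 55.5-fold lower with dnLEF1 and 13.9-fold with GFP. The chemokine CXCL16 was 28.7-fold and the adhesion receptor ICAM1 23.1-fold lower. The acute phase genes SAA1 and SAA2 had no count in either SW620 group. SAA1 varied between the SW480 dnLEF1 libraries, at 256, 139, 135 and 297 CPM, and was at least 5862-fold lower in SW620 dnLEF1. SAA2 averaged 40.5 ± 15.4 CPM there and was at least 1152-fold lower. SAA1 and SAA2 are near-identical copies, so the split of reads between them is uncertain.

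Growth factor, Notch and Eph genes contained large differences in both directions. Of 32 genes of ERBB, MET and FGF signalling, 8 were at least 2-fold higher and 9 at least 2-fold lower. FGF19, an intestinal hormone that signals to the liver through FGFR4, measured 122, 153, 136 and 164 CPM in SW620 dnLEF1 and 26.6, 29.0, 28.6 and 31.4 CPM in SW480 dnLEF1, 4.96-fold higher. With GFP it was lower in SW620, at 167 ± 22.9 CPM in SW620 GFP and 213 ± 15.2 CPM in SW480 GFP (log2 -0.35 ± 0.09, edgeR adjusted p = 0.00164), and the interaction was 2.66 ± 0.14 (adjusted p = 4.99e-12). FGFR4 itself was 5.72-fold higher with dnLEF1 and 5.91-fold with GFP, and ERBB3 4.87-fold and 2.90-fold. The ligand AREG was 8.0-fold lower with dnLEF1.

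Of 24 Notch genes, 6 were at least 2-fold higher and 9 at least 2-fold lower in SW620 dnLEF1. MFNG, a glycosyltransferase that modifies Notch, averaged 180 ± 17.5 CPM in SW620 dnLEF1 and 0.998 ± 0.281 CPM in SW480 dnLEF1, 180-fold higher with dnLEF1 and 190-fold with GFP. The ligand JAG1 was 19.5-fold higher, at 139 ± 15.7 CPM in SW620 dnLEF1 and 7.10 ± 0.808 CPM in SW480 dnLEF1. The receptor NOTCH2 was 26.8-fold lower, at 3.92 ± 0.718 CPM in SW620 dnLEF1 and 105 ± 19.4 CPM in SW480 dnLEF1. HES6 was 16.8-fold higher with dnLEF1 and 5.39-fold with GFP. Of 16 Eph receptors and ephrins 4 were at least 2-fold higher and 8 at least 2-fold lower. EPHB2, a Wnt target in the crypt, was 6.33-fold higher at 219 ± 9.96 CPM in SW620 dnLEF1 and 34.5 ± 2.57 CPM in SW480 dnLEF1, and 5.60-fold with GFP, and EPHB4 was 8.74-fold lower.

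Lipid synthesis genes were lower more often than higher in SW620 dnLEF1. Of 34 genes of cholesterol and fatty acid synthesis, 20 were lower and 3 higher in SW620 dnLEF1, with 10 at least 2-fold lower and a median log2 difference of -0.44, against 0.19 with GFP. The line difference was lower with dnLEF1 for 20 of the 34, against 12.3% of all genes. CYP51A1 was 3.95-fold and NSDHL 2.89-fold lower with dnLEF1.

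Of 51 genes of oxidative phosphorylation 20 were higher and 13 lower, and 2 each way passed 2-fold. The higher count was 1 without SW620 dnLEF1 replicate 2, and the lower count was 1 without SW480 dnLEF1 replicate 4 and 0 without the genes of the chromosome stretches. The list median was 0.11 with dnLEF1 and 0.29 with GFP. The line difference was lower with dnLEF1 for 14 of the 51, against 12.3% of all genes. That count was 9 without SW480 dnLEF1 replicate 4 or SW480 GFP replicate 4 and 23 without SW620 dnLEF1 replicate 2. NDUFB5 was 2.70-fold and NDUFB1 2.09-fold lower, and NDUFB8 2.11-fold and ATP5G2 2.11-fold higher, all subunits of complexes of the respiratory chain or ATP synthase. Glycolysis and hypoxia genes were at least 2-fold lower for 11 of 41 and higher for 5. The glucose transporter SLC2A3 averaged 21.3 ± 1.93 CPM in SW620 dnLEF1 and 274 ± 39.3 CPM in SW480 dnLEF1, against 43.5 CPM in SW620 GFP and 1433 CPM in SW480 GFP, and the carbonic anhydrase CA9 was 23.2-fold higher in SW620 dnLEF1.

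Of 49 cell cycle genes 4 were at least 2-fold higher and 5 at least 2-fold lower, and 12 were not called. CDKN1A, the p21 inhibitor of cyclin-dependent kinases, measured 1.09, 2.33, 1.38 and 2.45 CPM in SW620 dnLEF1 and 85.8, 96.1, 87.9 and 95 CPM in SW480 dnLEF1, 50.8-fold lower with dnLEF1 and 54.2-fold with GFP. CDK6, a kinase that partners cyclin D, was 5.38-fold higher with dnLEF1 and 2.66-fold with GFP.

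Among 16 protocadherins and neural adhesion genes 4 were at least 2-fold higher and 10 at least 2-fold lower in SW620 dnLEF1, with a median log2 difference of -2.11 with dnLEF1 and -2.29 with GFP (-3.54 over 23 in place of 20 genes tested without SW620 GFP replicate 3). MCAM, the melanoma cell adhesion molecule, averaged 11.1 ± 1.18 CPM in SW620 dnLEF1 and 187 ± 5.14 CPM in SW480 dnLEF1, and NRCAM 18 ± 1.75 CPM in SW620 dnLEF1 and 0.261 ± 0.138 CPM in SW480 dnLEF1. Of 13 imprinted genes 5 went each way by at least 2-fold, with the signalling adaptor GRB10 7.03-fold lower and MEST 2.42-fold higher. A list of 17 transcripts of use for RNA quality had 13 with a symbol among the counts. They were histone genes, MTRNR2L1 and the noncoding RNAs MALAT1, NEAT1, RMRP and RN7SL1. The 8 that passed the filter were histone genes and the named noncoding RNAs, so no mitochondrial transcript was tested. With dnLEF1, 4 of the 8 were at least 2-fold lower and 1 was called higher by less than 2-fold, with a median log2 difference of -1.16. With GFP the median was 0.56 over 7 genes, and -0.01 without SW620 GFP replicate 3. That library had 3737 counts of RN7SL1, against 191 to 254 in the others of its group, and 916 counts of RMRP, against 15 to 21. Whether RNA quality or selection had a part in the other lists was not tested.

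**Figure D4:**
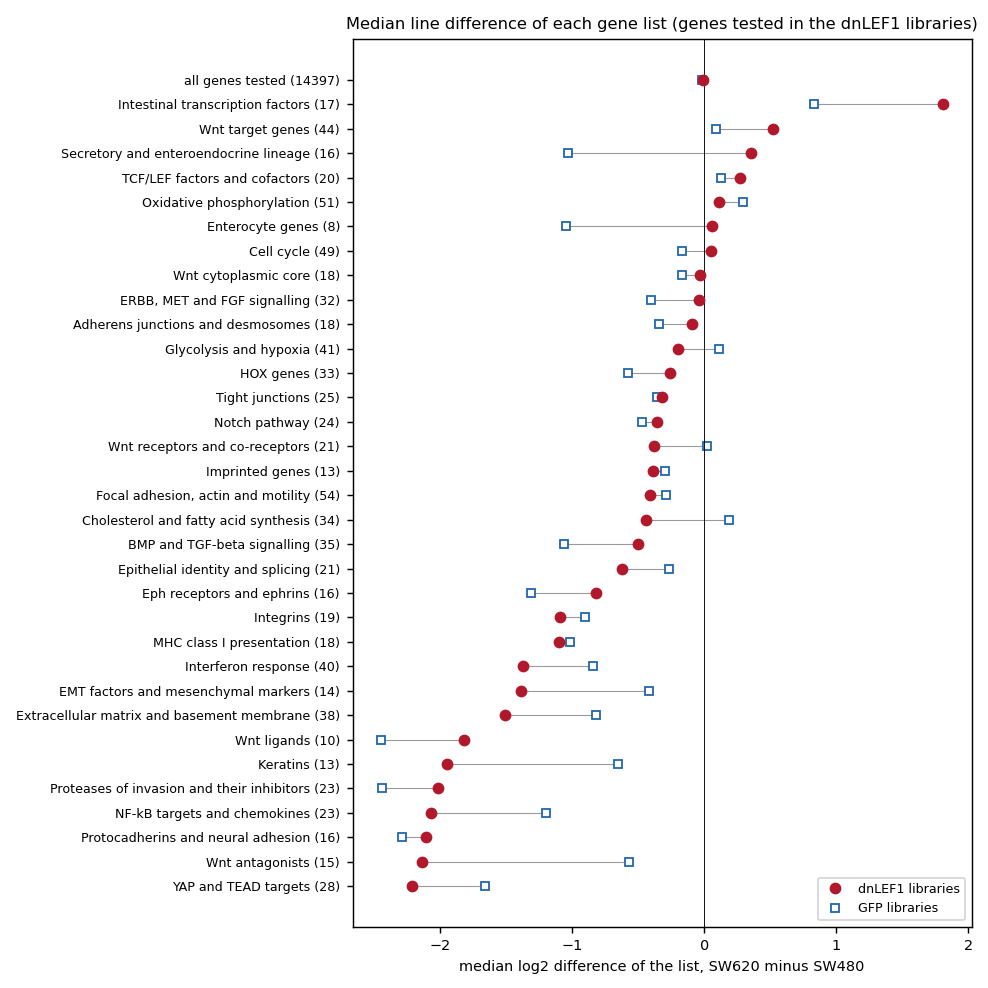
Median log2 difference of each gene list, SW620 minus SW480, with the number of its genes tested in the dnLEF1 libraries in parentheses. The GFP medians are over the genes tested in the GFP libraries, whose number differs for many lists, such as 10 in place of 8 enterocyte genes. Filled circles are the dnLEF1 libraries and open squares the GFP libraries. Intestinal transcription factors stand highest at 1.81 and YAP and TEAD targets lowest at -2.21 with dnLEF1, and all genes tested lie at -0.01.

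Some genes were on in one line and without a count in the other. With dnLEF1, 20 genes had a mean of at least 5 CPM in SW620 and no count in SW480, and 64 had at least 5 CPM in SW480 and no count in SW620. Of the 20, 6 also had no count in SW480 GFP, and of the 64, 47 also had none in SW620 GFP. The blood clotting factor F5, the sarcoglycan SGCE and KRT40 were among the 6. PEG10, an imprinted retrotransposon-derived gene next to SGCE on chromosome 7 (94656325 to 94669695, plus strand), measured 226, 200, 222 and 222 CPM in SW620 dnLEF1 and had 2 counts in SW480 dnLEF1, a ratio of 10037 with an exact 95% counting interval of 2778 to 82888, and 1 count in SW480 GFP.

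Other genes of the 20 did have counts in SW480 with GFP, among them NKX2-5 and MYRIP. The heart and gut homeobox gene NKX2-5 had 21.7 to 26.5 CPM in SW620 dnLEF1, at least 719-fold higher, against 0.259 ± 0.207 CPM in SW480 GFP, and the myosin adaptor MYRIP 19.6 to 21.8 CPM, at least 639-fold higher, against 0.943 ± 0.382 CPM in SW480 GFP. Outside the 20, TOX3, a chromatin factor, measured 72.4 to 83.8 CPM in SW620 dnLEF1 and had 1 count in SW480 dnLEF1, a ratio of 7156 with an exact 95% counting interval of 1284 to 282670. MME, neprilysin, measured 165 to 192 CPM in SW620 dnLEF1 and had 3 counts in SW480 dnLEF1, a ratio of 5390 with an interval of 1844 to 26140. Of the 6 without a count in SW480 GFP, the hepatic lipase LIPC averaged 16 ± 1.69 CPM in SW620 dnLEF1 and 3.35 ± 0.681 CPM in SW620 GFP, and had no count in either SW480 group.

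Among genes silent in SW620 dnLEF1, GNG11, a G protein gamma subunit, measured 99.1, 105, 105 and 140 CPM in SW480 dnLEF1 and was at least 3199-fold lower in SW620. The pregnancy-specific glycoprotein PSG1 and the adhesion receptor ADGRF1 were at least 2240-fold and 1608-fold lower. PSG1 belongs to a family of near-identical copies, which makes its level uncertain. The transcription factor AFF3, the channel subunit CACNG6, TMEM200A and the angiomotin relative AMOTL1 averaged 39.0 to 43.6 CPM in SW480 dnLEF1 and were at least 1121-fold to 1254-fold lower in SW620 dnLEF1. TMEM200A stood at 41.4 ± 3.12 CPM in SW480 dnLEF1 and 5.53 ± 1.08 CPM in SW480 GFP.

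The genes named for the largest interactions towards SW620 included guidance and adhesion genes. The protocadherin PCDH9 measured 7.37, 7.24, 9.09 and 7.17 CPM in SW620 dnLEF1 and had no count in SW480 dnLEF1, at least 239-fold higher. With GFP it was 5.44-fold lower in SW620, at 8.17 ± 1.25 CPM in SW620 GFP and 44.3 ± 12.7 CPM in SW480 GFP. PCDH19, another protocadherin, averaged 84.0 ± 5.57 CPM in SW620 dnLEF1 and 0.0768 ± 0.0895 CPM in SW480 dnLEF1, against 94.2 CPM in SW620 GFP and 40.0 CPM in SW480 GFP (interaction log2 8.77 ± 0.26, edgeR adjusted p = 3.33e-15). The axon guidance ligand SEMA3D had 18.5 to 27.6 CPM in SW620 dnLEF1 and 1 count in SW480 dnLEF1, while with GFP the lines were not called apart, at 17.1 ± 2.21 CPM in SW620 and 13.0 ± 5.35 CPM in SW480 (log2 0.40 ± 0.22, edgeR adjusted p = 0.103). Without SW480 GFP replicate 4 that GFP difference was called, at a log2 of 0.70. The guidance receptor ROBO2 averaged 9.79 ± 0.957 CPM in SW620 dnLEF1 and had no count in SW480 dnLEF1, at least 304-fold higher, against 7.01 CPM in SW620 GFP and 3.78 CPM in SW480 GFP. Fitted interactions of genes without a count in a group depend on the small count that the fit adds, so these genes are described here by their levels.

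The potassium channel KCNJ10 and the metalloprotease ADAMTS19 had no count in SW620 GFP, and the lines lay closer together with dnLEF1. KCNJ10 averaged 0.141 ± 0.0373 CPM in SW620 dnLEF1 and 1.13 ± 0.231 CPM in SW480 dnLEF1, against 16.1 ± 1.64 CPM in SW480 GFP. ADAMTS19 averaged 0.810 ± 0.195 CPM in SW620 dnLEF1 and 1.46 ± 0.547 CPM in SW480 dnLEF1 (edgeR adjusted p = 0.0168, not called without SW480 dnLEF1 replicate 3 or SW620 dnLEF1 replicate 1, at log2 -0.54 and -0.68), against 8.76 ± 1.5 CPM in SW480 GFP. DACH2 had 3 counts in SW620 dnLEF1 and none in SW480 dnLEF1, both at the floor, and 6.19 ± 2.43 CPM in SW480 GFP.

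On the other side were genes whose line difference was lower with dnLEF1 than with GFP. The cancer-testis antigen MAGEC2 had no count in SW620 dnLEF1 and measured 21.8, 21.8, 24.6 and 25.7 CPM in SW480 dnLEF1, against 0.0340 CPM in SW620 GFP and 0.676 CPM in SW480 GFP. PKIB, an inhibitor of protein kinase A, averaged 0.321 ± 0.238 CPM in SW620 dnLEF1 and 12.9 ± 0.757 CPM in SW480 dnLEF1, against 0.306 CPM in SW620 GFP and 0.192 CPM in SW480 GFP (interaction log2 -6.07 ± 0.62, edgeR adjusted p = 2.01e-07). SRPX2 averaged 1.45 ± 0.200 CPM in SW620 dnLEF1 and 11.7 ± 0.620 CPM in SW480 dnLEF1. PDGFC, a platelet-derived growth factor, had 2 counts in SW620 dnLEF1 and averaged 13.2 ± 3.38 CPM in SW480 dnLEF1, and SAMD12 had 1 count in SW620 dnLEF1 and averaged 9.42 ± 1.86 CPM in SW480 dnLEF1.

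Genes whose order between the lines reversed, beyond AXIN2 and CDH1, included adhesion molecules and a secretory granule protein. ALCAM, an adhesion molecule of the immunoglobulin family (chromosome 3, 105366909 to 105576900, plus strand), measured 2.23, 1.84, 1.93 and 1.45 CPM in SW620 dnLEF1 and 18.3, 22.6, 23.6 and 18.5 CPM in SW480 dnLEF1. With GFP it averaged 13.4 ± 1.99 CPM in SW620 and 2.99 ± 0.444 CPM in SW480, so the lines exchanged places without overlap. The log2 difference was -3.49 ± 0.15 with dnLEF1 and 2.16 ± 0.14 with GFP, an interaction of -5.65 ± 0.21 (edgeR adjusted p = 5.02e-14). SCG2, secretogranin II, moved the opposite way, at 28.8, 29.8, 34.2 and 33.3 CPM in SW620 dnLEF1 and 3.06, 3.22, 3.16 and 3.43 CPM in SW480 dnLEF1, with 2.14 ± 0.448 CPM in SW620 GFP and 8.32 ± 1.5 CPM in SW480 GFP (log2 3.29 ± 0.10 and -1.96 ± 0.18, interaction 5.25 ± 0.20, adjusted p = 5.02e-14).

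The protease-activated receptor F2RL1 was 2.81-fold lower in SW620 with dnLEF1, at 52.0 ± 1.59 CPM in SW620 dnLEF1 and 146 ± 5.54 CPM in SW480 dnLEF1, and 2.30-fold higher with GFP. KIZ, a centrosome protein, was 5.93-fold higher with dnLEF1, at 96.9 ± 9.01 CPM in SW620 dnLEF1 and 16.3 ± 0.773 CPM in SW480 dnLEF1, and 1.33-fold lower with GFP. AMIGO2, a cell adhesion protein, was 1.40-fold lower with dnLEF1, at 36.3 ± 2.82 CPM in SW620 dnLEF1 and 50.6 ± 7.0 CPM in SW480 dnLEF1, and 11.4-fold higher with GFP, where SW480 had 6.24 ± 1.41 CPM. The secretory vesicle protein SYTL5 was 2.54-fold lower with dnLEF1 and 27.3-fold higher with GFP, where SW480 had 8 counts.

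A further set differed between the lines with dnLEF1 and was not called with GFP. Beside SP5 and SEMA3D, the tyrosine kinase SYK measured 282, 250, 276 and 243 CPM in SW620 dnLEF1 and 35.2, 40.5, 38.8 and 30.2 CPM in SW480 dnLEF1, 7.25-fold higher, against 248 ± 37.7 CPM in SW620 GFP and 223 ± 11.9 CPM in SW480 GFP. The dynamin DNM3 averaged 13.3 ± 1.11 CPM in SW620 dnLEF1 and 0.880 ± 0.155 CPM in SW480 dnLEF1, 15.1-fold higher, and the G protein subunit GNAI1 85.7 ± 5.54 CPM in SW620 dnLEF1 and 19.2 ± 1.64 CPM in SW480 dnLEF1, 4.46-fold higher. CA8, a carbonic anhydrase relative, was 12.3-fold higher, at 6.45 ± 0.776 CPM in SW620 dnLEF1 and 0.520 ± 0.163 CPM in SW480 dnLEF1. For SYK, DNM3, GNAI1 and CA8 the SW480 dnLEF1 libraries were the lowest of the 4 groups, with GNAI1 at 59.0 CPM in SW620 GFP and 58.0 CPM in SW480 GFP, and CA8 at 3.60 CPM in SW620 GFP and 3.54 CPM in SW480 GFP.

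Among the lower ones, the interleukin 7 receptor IL7R measured 1.48, 1.41, 0.787 and 0.954 CPM in SW620 dnLEF1 and 25.3, 24.7, 26.1 and 23.9 CPM in SW480 dnLEF1, 22.1-fold lower, against 0.693 ± 0.270 CPM in SW620 GFP and 0.762 ± 0.160 CPM in SW480 GFP. ERRFI1, a feedback inhibitor of the EGF receptor, averaged 53.3 ± 5.33 CPM in SW620 dnLEF1 and 178 ± 10.9 CPM in SW480 dnLEF1, 3.34-fold lower, against 39.9 CPM in SW620 GFP and 38.5 CPM in SW480 GFP. The semaphorin SEMA7A was 6.40-fold lower, the adenosine receptor ADORA2B 3.23-fold, TMC6 2.22-fold and the tropomyosin TPM1 2.04-fold. In this set SW480 dnLEF1 was the high group. The 6 were chosen for a called interaction with the smallest adjusted p (edgeR, 3.30e-10 to 1.36e-08), so these calls are no separate result. Leaving out a GFP library brought a GFP call for SYK (log2 0.22 without SW620 GFP replicate 4), SEMA7A (log2 0.50 without SW480 GFP replicate 1) and TPM1 (log2 0.16 without SW480 GFP replicate 2 or SW620 GFP replicate 1).

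Neighbouring genes differed between the lines together in parts of the genome. With dnLEF1, 40 stretches were found, 21 higher and 19 lower in SW620, where overlapping runs of 25 adjacent genes, each with 23 or more differing in 1 direction, were merged into a stretch. They held 1539 of the 10723 genes placed with a mean log2 CPM above 2. Of the 1539, 1406 followed the direction of their stretch, a share that the rule for forming a stretch sets in advance. Among all 10723, 54.1% were higher in SW620 dnLEF1. Other genes described above also lay in lower stretches, among them ITGB5, EPHB4, TNFAIP2 and PLAUR. The median log2 differences of these stretches with dnLEF1 were -0.46, -0.78, -0.49 and -0.47. MME and CA9 were higher in SW620 dnLEF1 within lower stretches, with medians of -0.83 and -0.50. The highest median was on chromosome 16 between 67.2 and 77.2 Mb, where 87 of 95 genes were higher and the median log2 difference was 1.41 with dnLEF1 and 1.54 with GFP. HAS3, a hyaluronan synthase in it, was 35.4-fold higher with dnLEF1 and 17.4-fold with GFP, and MTSS1L 12.8-fold and 11.5-fold. The lowest was on chromosome X between 148 and 156 Mb, with 53 genes and a median of -0.87 with dnLEF1 and -0.74 with GFP, where IDS, a lysosomal sulfatase, was 4.89-fold lower.

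The 3 stretches whose medians with dnLEF1 and with GFP lay farthest apart were 2 on chromosome 5 and 1 on chromosome 7. The rule formed the stretches from the dnLEF1 differences alone, which favours large medians with dnLEF1. The GFP medians were read over the same genes without that choice, so a gap between the medians is a description only. On chromosome 5 the median log2 difference was 1.05 with dnLEF1 and 0.40 with GFP over 50 genes between 56.8 and 73.6 Mb, and 0.77 and 0.24 over 40 genes between 76.8 and 95.6 Mb. MCCC2, a mitochondrial carboxylase subunit in the first of these, averaged 360 ± 13.3 CPM in SW620 dnLEF1 and 109 ± 6.91 CPM in SW480 dnLEF1, against 262 CPM in SW620 GFP and 128 CPM in SW480 GFP. On chromosome 7 the medians were -0.63 and -1.08 between 102 and 108 Mb. In a neighbouring stretch between 99.0 and 101 Mb they were -0.78 and -1.03, and TRIP6, a focal adhesion adaptor in it, was 202-fold lower with dnLEF1 and 182-fold with GFP. Copy number of the lines was not measured here, and its part in the stretches was not tested.

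**Figure D5:**
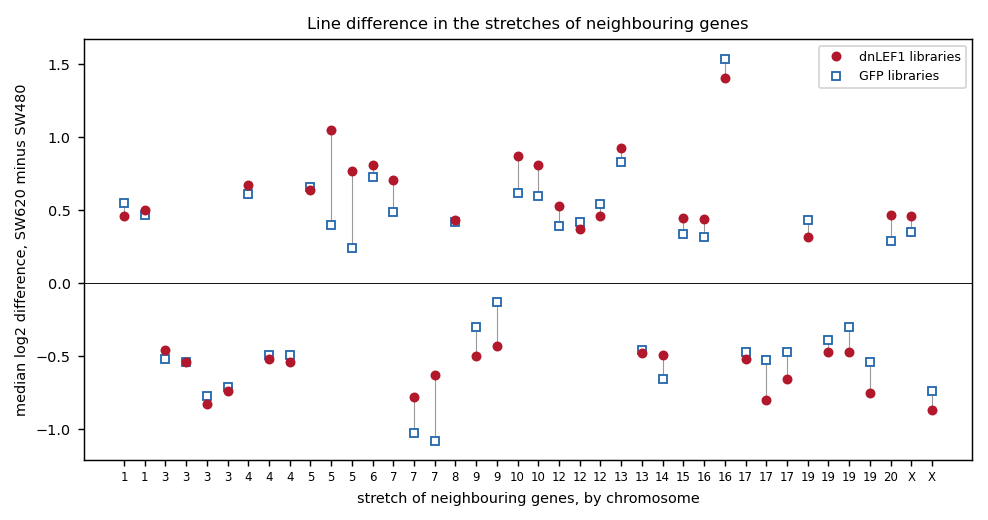
Median log2 difference, SW620 minus SW480, of the genes in each of the 40 stretches, ordered along the genome and labelled by chromosome. The stretches were formed from the dnLEF1 differences alone. Filled circles are the dnLEF1 libraries and open squares the GFP libraries. The stretch on chromosome 16 stands highest, and the gap between the symbols is wide in 2 stretches of chromosome 5 and 1 of chromosome 7.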

How the data were processed

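The deposited values are raw read counts per gene, 1 file per library, made by the authors with Trimmomatic, TopHat2 and HTSeq on hg38, per the submitters' processing notes, which also name DESeq2. Neither annotation nor strand setting is stated in those notes, so overlapping and antisense genes cannot be told apart. Summary lines of the counter, 20.0 to 24.3% of the deposited counts in the dnLEF1 libraries and 50.5% in SW620 GFP replicate 3, were left out. Here edgeR 4.0.16 (R 4.3.3) was run with TMM factors, its own filter on low counts and quasi-likelihood tests, with p-values adjusted after Benjamini-Hochberg over all genes tested and called at 0.05, on the 8 dnLEF1 libraries, on the 8 GFP libraries, and on all 16 for the interaction. CPM were computed from the deposited counts with effective library sizes of all 16 libraries. Means are given with SD over 4 libraries. Bounds use a floor of 3 counts over the 4 libraries of a group.

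Genes were placed by symbol with GENCODE 44, which placed 24284 of 26485 symbols. Named genes were 11 set by name, the 12 largest called differences each way with at least 5 CPM in a group and no overlap, up to 4 called members per list by smallest adjusted p, and the 8 largest interactions each way. They further included, by smallest interaction p, 6 genes whose called differences had opposite signs, 6 each way called with dnLEF1 alone, and 2 genes per stretch described. XIST and genes of the Y chromosome were left out, and some genes that the rule names are not reported here. The members and the gene lists were chosen with earlier results of these data known. Alternatives were RLE size factors, no filter or a stricter one, DESeq2 1.42.0, limma 3.58.1 voom, the replicate block, each library left out, 1 fit of all 16 libraries and leaving out stretch genes. The fits were tested on simulated data.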

Additional observations from a re-analysis of the deposited data

Results flagged for a closer look

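Among the genes described, 29 of 306 pairs of a gene and a dnLEF1 group had 1 library that stood apart from the other three, where chance gives about 1 in 20. In SW620 dnLEF1, replicate 4 lay below the other libraries for CTSL (3.11 CPM) and HLA-B (5.56 CPM) and above the other libraries for DKK3 (0.415 CPM), PDGFC (0.0829 CPM), PVRL3 (0.124 CPM) and WNT10A (3.94 CPM). Replicate 1 of that group lay above the other libraries for HERC5 (0.0495 CPM), PSMB9 (2.67 CPM), SAMD12 (0.0495 CPM) and SLC2A3 (24.1 CPM). Replicate 2 of that group lay below the other libraries for PEG10 (199.6 CPM), SYTL5 (3.87 CPM) and WWTR1 (14.5 CPM). Replicate 3 of that group lay above the other libraries for PCDH9 (9.09 CPM). In SW480 dnLEF1, replicate 4 lay below the other libraries for AXIN2 (63.1 CPM), EPHB2 (30.7 CPM) and LEF1 (173 CPM) and above the other libraries for GNG11 (139.6 CPM), MME (0.139 CPM), NDUFB1 (72.8 CPM) and SEMA3D (0.0463 CPM). Replicate 1 of that group lay below the other libraries for ADGRF1 (43.0 CPM), SLC2A3 (216 CPM) and TLE4 (10.7 CPM) and above the other libraries for FZD10 (0.131 CPM), HAS3 (2.76 CPM) and PEG10 (0.0875 CPM). Replicate 2 of that group lay above the other libraries for CA8 (0.762 CPM). Replicate 3 of that group lay above the other libraries for TOX3 (0.0421 CPM). LEF1, AXIN2 and EPHB2 were thus low in the same SW480 dnLEF1 library, replicate 4, in which GNG11 and NDUFB1 were high. That library had 20750433 gene counts, against 22232937 to 22542059 in the others of its group, and why it stood apart was not tested. Several of these values rest on single counts, such as those of HERC5, SAMD12, SEMA3D and TOX3.

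The line difference with dnLEF1 was called different from that with GFP by edgeR, in a test of the interaction itself at an adjusted p below 0.05, for 110 of the 166 genes described. Over all genes tested the share was 28.5%. Some of the 166 were named because their interaction was called, so the count of 110 is no result about the genes described. The values that follow are the line difference with dnLEF1 minus that with GFP, on the log2 scale. Among genes of the Wnt pathway it was 2.92 for AXIN2, 1.19 for CCND1, -0.41 for GPC4, 0.53 for LEF1, 3.62 for LGR5, 3.11 for NKD1, 3.15 for NOTUM, -1.29 for PLAUR, -0.30 for SLC16A3, 2.49 for SP5, -1.66 for DKK3, 4.20 for FZD10, -5.13 for TLE1, -0.71 for WNT10A and -1.18 for WNT10B. Among intestinal transcription factors and HOX genes it was 6.89 for CDX2, -1.0 for FOXA3, 0.53 for HNF4A, -0.72 for SOX2, -0.49 for HOXB6 and -0.41 for HOXB8. Enterocyte, secretory and keratin genes gave 3.57 for CDHR2, 3.05 for USH1C, 3.89 for DCLK1, 5.25 for SCG2, 2.16 for KRT23, 1.21 for KRT5 and -2.10 for KRT81.

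Junction and adhesion genes gave -2.83 for CDH1, 4.64 for CGNL1, -0.66 for CLDN7, 2.68 for CXADR, 0.30 for F11R, -5.65 for ALCAM, 0.31 for MCAM, 1.67 for NRCAM, 8.77 for PCDH19, -0.47 for ITGA3, -0.55 for ITGA5 and -0.54 for ITGAV. Mesenchymal, matrix, protease and actin genes gave -0.64 for AXL, 0.44 for MMP14, -0.34 for VIM, -1.09 for LOXL2, -0.33 for SDC4, -4.49 for PLAT, -5.69 for SRPX2, -3.28 for CNN3, -0.50 for GSN, -2.44 for LCP1, -1.16 for TPM1 and 3.57 for VIL1. Signalling genes gave -2.68 for F3, -0.54 for WWTR1, 1.30 for INHBB, 1.72 for TGFBR3, 0.74 for ERBB3, 2.66 for FGF19, 1.63 for HES6, 1.73 for JAG1, 1.27 for NOTCH2 and 0.37 for EPHB4. Genes of antigen presentation, the interferon response and chemokines gave -1.24 for HLA-B, -0.57 for HLA-E, -1.83 for HLA-F, -1.19 for MX1, -1.15 for CXCL16 and -2.01 for TNFAIP2. Metabolic, cell cycle and imprinted genes gave -0.54 for NSDHL, -0.34 for NDUFB5, 1.35 for SLC2A3, 1.01 for CDK6, -0.79 for GRB10 and 0.86 for MEST.

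Genes outside the lists gave -1.56 for ADORA2B, -3.99 for AMIGO2, 3.59 for CA8, 3.97 for DNM3, -1.79 for ERRFI1, -2.70 for F2RL1, 2.13 for GNAI1, 1.02 for HAS3, -0.29 for IDS, -4.31 for IL7R, 2.98 for KIZ, 0.68 for MCCC2, -6.07 for PKIB, -3.02 for SEMA7A, 2.70 for SYK, -6.12 for SYTL5 and -1.11 for TMC6. The remaining genes had 3 or fewer counts over the libraries of at least 1 group, so that the size of their value depends on the small count that the fit adds. They gave 9.76 for ADAMTS19, -4.88 for CD74, 12.94 for DACH2, -2.34 for DKK4, 2.79 for FZD7, 7.53 for HNF4G, 8.51 for KCNJ10, 10.47 for LUM, -7.99 for MAGEC2, 4.69 for MME, 7.86 for MYRIP, 5.42 for NKX2-5, 12.86 for PCDH9, -5.13 for PDGFC, 9.86 for ROBO2, -5.18 for SAMD12, 10.10 for SEMA3D, 7.47 for TFF3 and 8.11 for TOX3.

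The interaction call was lost without 1 library for 13 of these genes. It was lost for CD74 (without SW620 GFP replicate 2, at -3.58), DACH2 (without SW620 dnLEF1 replicate 2, at 11.96) and MAGEC2 (without SW620 GFP replicate 1, at -5.13). Without any 1 of several of the 16 libraries, it was lost for CLDN7 (11 libraries, at -0.68 to -0.44), DKK4 (6 libraries, at -2.51 to -1.79), IDS (9 libraries, at -0.29 to -0.23), LEF1 (9 libraries, at 0.47 to 0.57), MCAM (10 libraries, at 0.23 to 0.31), MMP14 (7 libraries, at 0.35 to 0.43), SLC16A3 (7 libraries, at -0.30 to -0.23), VIM (11 libraries, at -0.35 to -0.28), WNT10A (11 libraries, at -0.75 to -0.55) and WNT10B (5 libraries, at -1.10 to -0.99).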

How the results depend on the processing

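The count of 11364 genes called between SW620 dnLEF1 and SW480 dnLEF1 stayed between 10021 and 12710 under 16 alternatives, and between 11082 and 11409 when 1 library was left out. The counts at least 2-fold ranged from 1545 to 2252 higher and from 2633 to 3989 lower, and the list members called at least 2-fold either way from 389 to 485 around 433. Of the counts of called genes and of stretches, taken over all genes or all lists, only the number of stretches moved by more than 1.5 times. It was 111 in place of 40 for windows of 15 genes of which 14 had the same sign. Counts of genes sorted by their calls with each construct and in the interaction moved that far in 4 pairs of a count and an alternative, and not in 238. Counts within single lists did so in 86 pairs, and not in 2726. Without a filter on low counts, lists with many weakly expressed members had more calls, such as 7 enterocyte genes at least 2-fold higher and 10 Wnt ligands at least 2-fold lower, since more genes were tested. The single reversal was the interaction of PVRL3, -1.90 with limma voom (adjusted p = 0.0400) and 0.23 without a call as reported, where SW620 had 3 counts with dnLEF1 and none with GFP, and the cause was not tested. Over pairs of a gene result and an alternative, 8529 kept direction and call, 96 were no longer past the threshold and 51 newly were.

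With the replicate block, 11377 genes were called with dnLEF1 and 4835 in the interaction. The numbers share no source in the labels, and same-numbered deviations of SW620 dnLEF1 and SW480 dnLEF1 libraries correlated at 0.30, -0.42, 0.55 and -0.13, so the samples were not treated as paired. Depth limits genes near the floor of 3 counts over a group, where a difference is a bound or carries a wide counting interval, and intervals cover counting error only.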
